A study of Drosophila melanogaster with 8 samples.

Results

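The 10 genes described here form the core of the fly's Toll and IMD signalling pathways: *spz*, *nec*, *Tl*, *pll*, *cact*, *dl* and *Dif* of the Toll pathway, and *imd*, *key* and *Rel* of the IMD pathway. They were chosen by name, and all 10 were found by symbol among the 16727 gene symbols listed. All 10 also passed the filter on low counts, so each was among the 9633 genes tested. The genes were measured by RNA-seq of total RNA from adult *Drosophila melanogaster* heads, in 4 libraries labelled w1118, the *white*-mutant control strain, and 4 labelled Top3b26. Top3b26 is an allele of *Top3β*, which encodes an RNA and DNA topoisomerase, made by remobilizing a P-element. The paper states that this allele was generated in the w1118 background. All flies were adults of 1 to 2 weeks kept at 25 °C, and the sources used here do not describe rescue or backcross flies for this assay, so the allele cannot be told apart from other differences between the strains. Each sample was a pool of frozen and sieved heads of unstated sex. The paper describes independently prepared sets of RNA samples, fewer than the 4 libraries of each genotype read here. Nothing in the labels says whether replicates came from separate cultures, so a p-value measures the spread between these samples.

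In the Toll pathway, a protease cascade in the hemolymph cuts the precursor of Spätzle, and the cut form binds the receptor Toll. The receptor then recruits adaptors and the kinase Pelle, the inhibitor Cactus is degraded, and the NF-κB factors Dorsal and Dif enter the nucleus. In the IMD pathway, receptors that bind bacterial peptidoglycan act through the adaptor Imd and the IκB kinase complex, and the NF-κB factor Relish is cut and activated. Both pathways switch on genes of antimicrobial peptides in fat body, part of which lies in the head, and Toll also patterns the embryo.

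The count of reads on genes was 3301976 to 7591510 per library, at which 3 counts correspond to 0.395 to 0.909 CPM, the count scaled to the library total. The targeted gene, *Top3β*, was counted 134 to 215 times in the libraries labelled w1118 and 214 to 534 times in those labelled Top3b26, against the direction a loss-of-function label implies, so every direction below rests on the labels alone. Which part of the gene the allele lacks is not given in the sources used here. The labels name no batch, but for both genotypes the deposited tables of replicates 1 and 2 carry column headings and the tables of replicates 3 and 4 carry none, so each set is also given on its own. Markers of other cell types stood apart in some libraries. The 5 photoreceptor markers, none of which was at 0, summed to 28340 to 38660 CPM in the libraries labelled w1118 and to 20960 and 25690 CPM in Top3b26 replicates 3 and 4, but to 2042 and 1908 CPM in Top3b26 replicates 1 and 2, although the tissue is labelled head. The 3 yolk protein genes, made by female fat body, summed to a mean of 37250 CPM in w1118 replicates 3 and 4 and of 8660 to 11560 CPM in the other sets. The 6 fat body markers summed to a mean of 8687 CPM in the same w1118 pair and of 1938 to 2286 CPM elsewhere, but did not all move alike. In replicates 1 and 2 alone 3 of 5 tested were called higher under Top3b26 and 2 lower, where 10.5% of all genes were called. In replicates 3 and 4 alone 1 of 6 was called higher and 4 lower, where 7.48% of all genes were. The 7 hemocyte markers summed to 338 to 499 CPM under w1118 and to 501 to 591 CPM under Top3b26, but were split in direction. Over all 8 libraries edgeR placed 3 of the 6 tested above w1118 and 3 below it, and called 0. The fit of replicates 1 and 2 alone called 2 higher and 1 lower, beside 10.5% of all genes. That of replicates 3 and 4 called 0. The 5 neuron markers summed to 6073 to 7408 CPM under w1118 and to 6940 to 9276 CPM under Top3b26. In replicates 1 and 2, the 5 muscle markers summed to a mean of 2335 CPM in w1118 and 3307 CPM in Top3b26. In replicates 3 and 4 they summed to 6918 and 9316 CPM. The 5 glia markers summed to a mean of 1284 and 1538 CPM in replicates 1 and 2, and of 1994 and 2246 CPM in replicates 3 and 4. Fewer cells of a type and less RNA per cell cannot be told apart in these bulk samples.

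Every core gene was read in every library, and the levels spanned more than a factor of 10. Levels between genes were compared as RPKM, the CPM divided by the length of a gene's merged exons in kilobases. *nec*, the serpin that restrains the Toll protease cascade, was highest at 79.1 ± 16.2 RPKM (SD, n = 8). *cact*, the inhibitor of Dorsal and Dif, followed at 48.9 ± 2.59 RPKM and had the smallest relative spread of the 10, and *Rel* came next at 34.3 ± 3.51 RPKM. The order *nec*, *cact*, *Rel*, *key* held in 8 of 8 libraries. *key*, *Tl*, *spz* and *Dif* lay close together, at 26.1 ± 2.61, 23.2 ± 2.47, 20.7 ± 5.05 and 20.1 ± 3.43 RPKM. Their order did not hold beyond the spread: *key* was above *Tl* in 7 libraries, *Tl* above *spz* in 6, and *spz* above *Dif* in 4 of 8. *dl* stood at 12.0 ± 2.15 RPKM and below *Dif* in 8 of 8 libraries. The lowest were *imd* at 9.73 ± 1.88 RPKM, below *dl* in 6 of 8 libraries, and *pll* at 4.71 ± 1.07 RPKM, below *imd* in all 8. Without division by exon length the order changed for 8 of the 10 genes, since *key* and *nec* have short exons (1421 and 1633 bases) and *dl*, *Dif* and *Tl* long ones (6432, 5695 and 5198 bases).

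**Figure D1:**
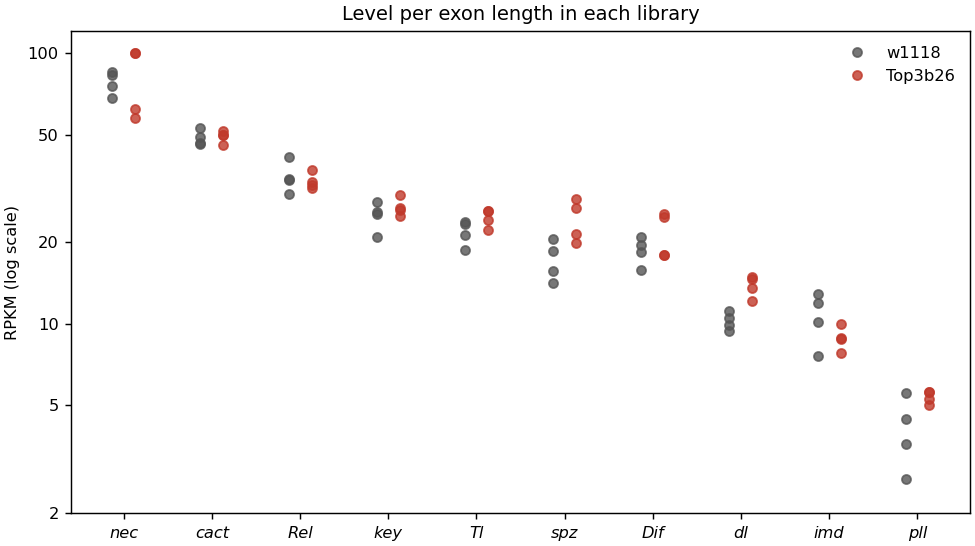
Level of each core gene in the 8 libraries, as RPKM on a log axis, ordered by the mean over all libraries, with w1118 in grey and Top3b26 in red. *nec* lay at 57.7 to 100.5 RPKM and *pll* at 2.67 to 5.59 RPKM, and the middle genes *key*, *Tl*, *spz* and *Dif* overlapped.

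None of the 10 core genes passed the test between the genotypes. In edgeR's quasi-likelihood test, with p-values adjusted over all tested genes, calls needed an adjusted p no higher than 0.05 together with a change of 1.5-fold or more, and 0 of 10 core genes were called where 0.914% of all tested genes were. The count was also 0 in DESeq2, in limma-voom, with the replicate number as a block (3.82% of all genes called) and with a term for the sets of replicates (5.6%). Unadjusted p-values up to 0.05 were reached by 2 core genes that were higher in the libraries labelled Top3b26 (5.03% of all genes) and by 0 that were lower (7.34%). These were *dl* and *spz*. The log2 fold changes of the 10 ran from -0.42 for *imd* to 0.37 for *spz*, with a median of 0.01 beside -0.01 over all genes, and their median absolute value was 0.15 beside 0.18. These values were scaled with edgeR's TMM factors. Scaling to library totals alone, as in the CPM values printed below, moved the median of all genes to 0.12 and turned the small negative values of *nec*, *cact* and *key* positive, at 0.04, 0.02 and 0.11.

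**Figure D2:**
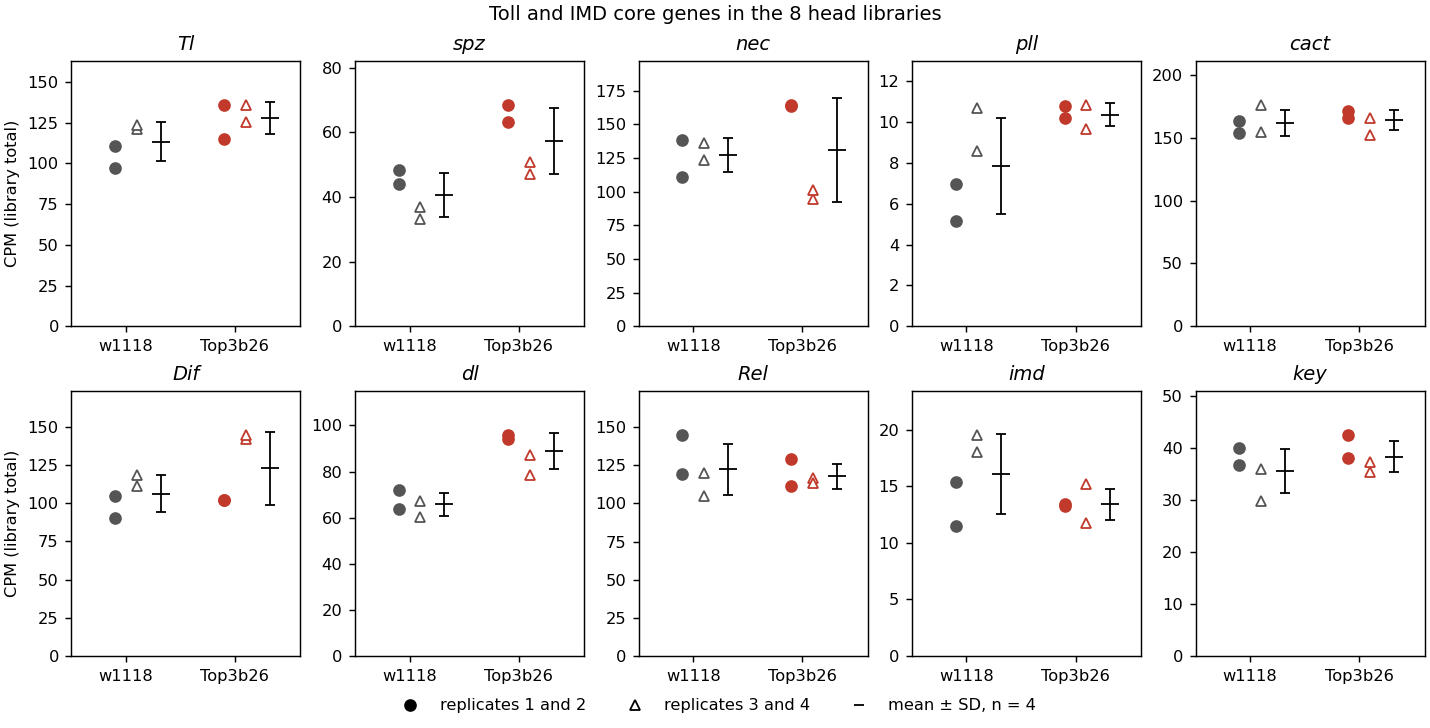
CPM of each core gene in the 4 libraries of each genotype, with replicates 1 and 2 as dots, replicates 3 and 4 as triangles, and the mean and SD of 4 as a bar. For *dl*, the 4 libraries labelled Top3b26, at 78.3 to 95.9 CPM, all lay above the 4 labelled w1118, at 60.4 to 71.9 CPM, and the other 9 genes overlapped. Of all tested genes, 7.64% had such groups with Top3b26 higher and 2.58% with Top3b26 lower.

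The extracellular pair of the Toll pathway, the ligand and the serpin, differed in how steady they were between the sets. *spz* encodes the precursor of the Toll ligand Spätzle and lies on 3R from 27064990 to 27070070 (dm6, minus strand, 7 exons). It stood at 48.4, 43.9, 33.4 and 37.0 CPM in w1118 replicates 1 to 4 and at 68.4, 63.1, 50.9 and 47.1 CPM in Top3b26 replicates 1 to 4. The Top3b26 library was the higher one of every same-numbered pair, and within each set of replicates the genotypes did not overlap. Within a set only 2 libraries stand against 2, and the share of all genes with this pattern was not counted. Over all 8 libraries the genotypes overlapped, because w1118 replicate 1 lay above Top3b26 replicate 4. In log2 CPM scaled to library totals, *spz* differed by 0.48. The exact two-sided permutation test of that difference over the 8 libraries gave p = 0.0571, where 0.0286 is the smallest that 4 against 4 allow. In edgeR, *spz* differed by 0.37 on the log2 scale (standard error 0.13, adjusted p = 0.297). Replicates 1 and 2 alone gave 0.35 and replicates 3 and 4 alone 0.36. With the set term the adjusted p of *spz* was 0.0346, at a change of 0.36, which is under the 1.5-fold minimum, and 8.98% of all genes passed that adjusted p. In both genotypes, *spz* was higher in replicates 1 and 2 than in replicates 3 and 4.

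*nec*, the Necrotic serpin, lies on 2R from 7156477 to 7158241 (minus strand, 3 exons), inside the gene *pk* on the other strand, with no exon bases shared. It stood at 138.7, 111.1, 123.4 and 136.1 CPM in w1118 replicates 1 to 4, and at 164.1, 163.8, 94.3 and 101.3 CPM in Top3b26 replicates 1 to 4. In CPM, Top3b26 replicates 1 and 2 were higher than all 4 w1118 libraries, and Top3b26 replicates 3 and 4 were lower than all 4. With TMM scaling the latter held, but Top3b26 replicates 1 and 2, at 146.2 and 149.4, were below w1118 replicate 4 at 152.9. The share of all genes with such a split was not counted. In log2 CPM scaled to library totals, where the genotypes differed by -0.0026, the exact permutation test gave p = 1.0. The pooled log2 fold change of *nec* was -0.11 (standard error 0.18, adjusted p = 0.845 from edgeR). It was 0.24 in replicates 1 and 2 (standard error 0.14, adjusted p = 0.311) and -0.52 in replicates 3 and 4 (standard error 0.10, adjusted p = 0.00639), the latter under the fold minimum, with 11.4% of all genes past that adjusted p in replicates 3 and 4. The difference between the sets itself passed the test of the interaction of genotype and set, at -0.78 on the log2 scale (standard error 0.17, adjusted p = 0.00914 from edgeR). *nec* was the only 1 of the 10 to pass it, where 7.31% of all genes did. Summed fat body markers, at 8687 CPM in w1118 and 2286 CPM in Top3b26, moved in the same direction as *nec* in replicates 3 and 4. Of the 6 fat body markers, 4 were called lower there and 1 higher. In replicates 1 and 2 the summed fat body markers were 2105 CPM in w1118 and 1938 CPM in Top3b26. Summed photoreceptor markers, at 37120 and 1975 CPM, differed in replicates 1 and 2. The part of either in the result was not tested.

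The receptor and its kinase overlapped between the genotypes over all 8 libraries. *Tl*, the Toll receptor itself, spans 3R from 26799041 to 26842403 (plus strand, 5 exons). Its CPM was 110.7, 97.5, 121.3 and 123.7 in w1118 replicates 1 to 4 and 115.3, 135.7, 125.6 and 135.7 in Top3b26 replicates 1 to 4. The lowest library was w1118 replicate 2, which also had the smallest count on genes. The groups of 4 overlapped, although the Top3b26 library was the higher one of every same-numbered pair and neither set overlapped on its own. The share of all genes with this pattern was not counted. With TMM scaling this pattern was lost, since Top3b26 was then the lower one of 3 pairs. *Tl* had a log2 fold change of 0.04 (95% interval -0.29 to 0.37, adjusted p = 0.939), so that a change of 1.5-fold in either direction lay outside its interval.

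*pll* encodes Pelle, the kinase of the IRAK family that acts below Toll (3R, 27251131 to 27253182, minus strand, 3 exons). It was the most weakly read of the 10, with counts of 44, 17, 54 and 81 in w1118 replicates 1 to 4 and of 60, 68, 52 and 63 in Top3b26 replicates 1 to 4. This equals 6.97, 5.15, 8.58 and 10.7 CPM against 10.8, 10.2, 10.8 and 9.66 CPM. The 4 Top3b26 libraries were alike, at 10.4 ± 0.544 CPM (SD, n = 4), while the w1118 libraries spread over 7.84 ± 2.35 CPM (SD, n = 4). Its log2 fold change was 0.23, with a wide 95% interval from -0.32 to 0.78, and the sets gave 0.60 for replicates 1 and 2 and -0.04 for replicates 3 and 4. It was 0.087 without w1118 replicate 2 and 0.46 without w1118 replicate 4. The difference between the sets did not pass the test (-0.66, adjusted p = 0.318 in edgeR). With the wide pooled interval, neither a change nor its absence could be shown for *pll*.

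Among the genes at the end of the Toll pathway, *dl* was higher in every library labelled Top3b26, while its inhibitor and its paralog were not. *dl* encodes Dorsal, the NF-κB factor known for patterning the embryo (2L, 17436830 to 17450364, minus strand, 11 exons). It stood at 71.9, 63.6, 60.4 and 67.3 CPM in w1118 replicates 1 to 4 and at 94.1, 95.9, 87.4 and 78.3 CPM in Top3b26 replicates 1 to 4. The groups of 4 did not overlap, with or without TMM scaling, and *dl* was the only core gene of which this held. Of all tested genes, 7.64% had such groups with Top3b26 higher and 2.58% with Top3b26 lower. In log2 CPM scaled to library totals, where the genotypes differed by 0.43, the exact permutation test gave p = 0.0286, the smallest possible. *dl* had a log2 fold change of 0.30 ± 0.10 (SE, adjusted p = 0.262 in edgeR). It was 0.33 in replicates 1 and 2 (adjusted p = 0.138) and 0.26 in replicates 3 and 4 (adjusted p = 0.176). The 95% interval of the pooled value, 0.08 to 0.53, lay above 0 and below the 1.5-fold minimum of 0.585. After adjustment over all genes, *dl* did not pass. In edgeR its adjusted p was 0.174 with the replicate block and 0.0671 with the set term.

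*Dif*, which encodes the NF-κB factor that carries much of the adult Toll response, lies 3668 bases from *dl* (2L, 17413248 to 17433161, minus strand, 7 exons). Its CPM was 104.5, 90.3, 111.0 and 118.7 in w1118 replicates 1 to 4, and 102.2, 102.2, 141.8 and 144.6 in Top3b26 replicates 1 to 4. Top3b26 replicates 3 and 4 were the highest of all, and Top3b26 replicates 1 and 2 lay within the range of w1118. The pooled log2 fold change of *Dif* was 0.09 (standard error 0.20, adjusted p = 0.901), with -0.08 in replicates 1 and 2 and 0.21 in replicates 3 and 4 (adjusted p = 0.208). The larger difference was between the sets of replicates: across both genotypes, *Dif* was 0.53 higher on the log2 scale in replicates 3 and 4 than in replicates 1 and 2 (adjusted p = 0.00126), and *Tl* 0.31 higher (adjusted p = 0.0243), where 35.5% of all genes passed that adjusted p. Both were under the 1.5-fold minimum, so 0 of 10 core genes were called between the sets, where 18.6% of all genes were.

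*cact*, the IκB homolog that holds Dorsal and Dif in the cytoplasm, was the steadiest of the 10 (2L, 16313036 to 16326207, minus strand, 8 exons). It was read at 153.4, 163.2, 175.6 and 154.1 CPM in w1118 replicates 1 to 4 and at 171.1, 165.4, 152.4 and 165.4 CPM in Top3b26 replicates 1 to 4. The highest and the lowest library in CPM were both of replicate number 3, one of each genotype, and the groups overlapped. For *cact* the log2 fold change was -0.11 (95% interval -0.35 to 0.13, adjusted p = 0.712).

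In the IMD pathway, the adaptor gene *imd* had the most negative pooled log2 fold change of all core genes. Each of *imd*, *key* and *Rel* overlapped between the genotypes over all libraries. *imd* lies on 2R from 18409796 to 18413599 (minus strand, 3 exons). It was counted 97, 38, 123 and 137 times in w1118 replicates 1 to 4 and 74, 90, 73 and 77 times in Top3b26 replicates 1 to 4. This equals 15.4, 11.5, 19.5 and 18.1 CPM against 13.3, 13.5, 15.2 and 11.8 CPM. All 4 Top3b26 libraries lay below the median of w1118, but w1118 replicate 2, the shallowest library, was the lowest of all. The pooled difference of *imd* was -0.42 on the log2 scale (standard error 0.21, 95% interval -0.89 to 0.06, adjusted p = 0.465 from edgeR).

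Within replicates 3 and 4 alone, *imd* fell by 0.60 on the log2 scale (standard error 0.17, adjusted p = 0.036 from edgeR with 2 libraries a genotype), and it was the only 1 of the 10 core genes called there, where 7.48% of all genes were. In replicates 1 and 2 alone, where 10.5% of all genes were called, 0 of 10 core genes were, and *imd* stood at -0.18 (adjusted p = 0.70). The difference of *imd* between the sets did not pass the test (-0.44, adjusted p = 0.439). Beside the *imd* value in replicates 3 and 4 stand the lower summed fat body and yolk protein markers of Top3b26 in the same set, whose part was not tested. Of 9 other tested genes within 10 kb of *imd*, 0 were called in edgeR over all 8 libraries, where *imd* was not called either. Their median log2 fold change was -0.07. Within 30 kb, 6 of 25 were called, all lower, beside 0.914% of all tested genes. The nearest of them was *GstE1*, 10573 bases away, a glutathione transferase gene. The others were *IM2*, *CG18107*, *CG15067*, *CG16836* and *CG15068*, 19167 to 24885 bases away, in the cluster of immune-induced peptide genes. These genes were named after their values were seen. *GstE9*, a glutathione transferase gene on the other strand that shares 40 exon bases (2.64%) with *imd*, stood at -0.58 (adjusted p = 0.535). In replicates 3 and 4 alone *GstE9* stood at -0.62 (adjusted p = 0.00639 from edgeR), which passed both thresholds for a call, as *imd* did. *Dp1*, which also overlaps *imd*, stood at -0.16 there (adjusted p = 0.37) and did not pass. Whether counting used strand is not given in the sources used here, so shared bases may count for either gene. *Dif* shares 252 exon bases (4.42%) with *CG15141* on the other strand, and *cact*, *pll*, *key* and *spz* share 62, 31, 29 and 5 bases with a neighbour.

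*key* encodes Kenny, the regulatory subunit of the IκB kinase complex (2R, 24785514 to 24787411, minus strand, 6 exons). It stood at 36.7, 40.0, 36.1 and 29.8 CPM in w1118 replicates 1 to 4 and at 42.6, 38.1, 35.5 and 37.4 CPM in Top3b26 replicates 1 to 4. The groups overlapped within each set as well as over all libraries. *key* had a log2 fold change of -0.02 (95% interval -0.26 to 0.23, adjusted p = 0.974), an interval that holds no 1.5-fold change.

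*Rel* encodes Relish, the NF-κB factor of the IMD pathway (3R, 9044183 to 9047977, minus strand, 2 exons). It was read at 144.9, 119.3, 119.9 and 105.2 CPM in w1118 replicates 1 to 4 and at 129.4, 111.3, 116.7 and 113.6 CPM in Top3b26 replicates 1 to 4. In CPM, replicate 1 was the highest library of both genotypes and replicate 4 of w1118 was the lowest of all. The groups overlapped in CPM in both sets, while with TMM scaling both Top3b26 libraries of replicates 1 and 2 were below both of w1118. For that separation too, the share over all genes was not counted. The log2 fold change of *Rel* was -0.18 (standard error 0.11, 95% interval -0.42 to 0.06, adjusted p = 0.543), with -0.29 in replicates 1 and 2 (adjusted p = 0.206) and -0.07 in replicates 3 and 4.

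**Figure D3:**
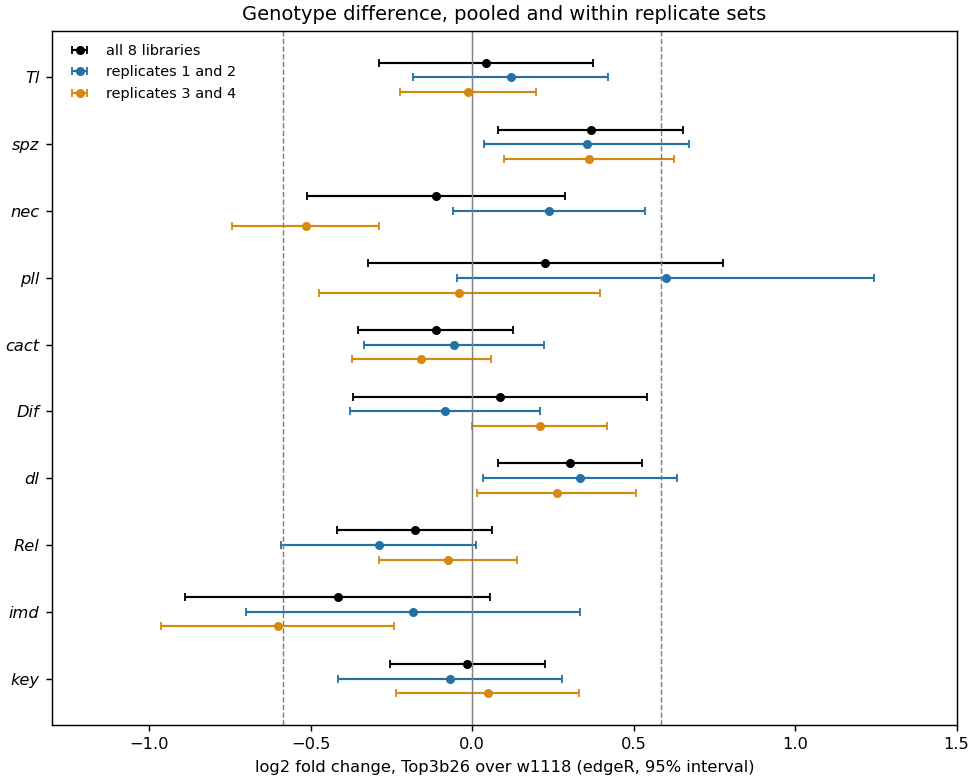
Log2 fold change of each core gene, Top3b26 over w1118, with its 95% interval from edgeR, over all 8 libraries (black) and within replicates 1 and 2 (blue) or 3 and 4 (orange), with dashed lines at the 1.5-fold minimum. *dl* and *spz* held their direction in both sets, and *nec* went from 0.24 in replicates 1 and 2 to -0.52 in replicates 3 and 4.

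Other genes of the pathways were read from 6 lists. Upstream of Spätzle, 12 of 18 genes for recognition receptors and proteases were tested. In edgeR and in limma-voom 0 rose and 1 fell, where 0.914% of all genes were called in edgeR. In DESeq2, which fitted all 18, 1 rose and 1 fell, where 238 of 14342 genes were called. The median log2 fold change in edgeR was 0.09. The gene that fell in edgeR was *PGRP-SD*, a peptidoglycan recognition protein, at 34.4 ± 7.37 CPM (SD, n = 4) under w1118 and 13.2 ± 2.04 CPM (SD, n = 4) under Top3b26. This difference was -1.49 on the log2 scale (SE 0.17, adjusted p = 0.00452 in edgeR), and the groups did not overlap. *ea*, which encodes Easter, the protease that cuts Spätzle in the embryo, stood at 10.4 ± 3.24 and 22.4 ± 7.15 CPM. *ea* had a change of 0.96 (adjusted p = 0.146), and with the replicate block it rose by 0.95 (adjusted p = 0.0207).

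Inside the cell, 0 of 9 tested Toll pathway partners were called by edgeR, DESeq2 or limma-voom, and none had an unadjusted p up to 0.05. Their median log2 fold change was 0.03, and the smallest p-values belonged to *Pli*, the Pellino adaptor, at -0.27 (adjusted p = 0.657), and *krz*, a β-arrestin, at 0.11 (adjusted p = 0.815). Of the other Toll receptors and Spätzle-like ligands, 0 of 9 tested were called by the same tools, none reached an unadjusted p of 0.05, and the median was 0.10. *Toll-7* stood at 0.23 (adjusted p = 0.443) and *Tehao* at 0.37 (adjusted p = 0.601). Among 9 tested serpins other than *nec*, 0 were called by edgeR or limma-voom. DESeq2 called 2 of 10, both lower, where 238 of 14342 genes were called. Without adjustment 3 of the 9 were lower and 0 higher at a p up to 0.05 in edgeR, beside 7.34% and 5.03% of all genes. *Spn42Dd* went from 26.2 ± 1.88 to 13.6 ± 5.08 CPM (SD, n = 4 each), at -1.10 (adjusted p = 0.0719), and fell by 1.13 with the replicate block (adjusted p = 0.0246).

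Of the 23 IMD pathway partners, all tested, 0 were called by edgeR, DESeq2 or limma-voom, and the median was -0.14. Without adjustment 1 was higher and 2 were lower at a p up to 0.05 in edgeR, beside 5.03% and 7.34% of all genes. *PGRP-LB*, an amidase that degrades peptidoglycan and restrains the pathway, stood at -0.44 (adjusted p = 0.382), and *Iap2*, a ubiquitin ligase of the pathway, at 0.26 (adjusted p = 0.317). In replicates 1 and 2 alone 4 of the 23 were called lower, beside 7.03% of all genes, and in replicates 3 and 4 alone 0 were, beside 5.95%.

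The antimicrobial peptide genes, the known targets of both pathways, had negative log2 fold changes in all 12 tested of the 14 listed. Their median was -1.65, beside 0.01 for the 10 core genes, and the difference between these groups was not tested. In edgeR 0 of 12 were called, and in limma-voom 0. In DESeq2 5 of 14 were called, all lower, where 238 of 14342 genes were called. With the replicate block 5 of 12 were called, all lower, where 3.82% of all genes were called. Before adjustment 11 of 12 were lower at a p up to 0.05 in edgeR, beside 7.34% of all genes. With the block, the log2 fold change was -2.54 for *Mtk* (adjusted p = 0.0266), -2.24 for *Drs* (adjusted p = 0.0229), -1.82 for *Dro* (adjusted p = 0.0265) and -1.31 for *AttA* (adjusted p = 0.0484). *Drs*, which encodes Drosomycin, is the classical Toll target, while *AttA*, an attacin, depends mainly on Relish. The summed level of the 14 genes was 1255, 1830, 848.7 and 273.2 CPM in w1118 replicates 1 to 4 and 235.2, 282.5, 409.0 and 280.4 CPM in Top3b26 replicates 1 to 4. The first 3 w1118 libraries were high, and w1118 replicate 4 lay within the range of Top3b26. In replicates 1 and 2 alone, 13 of 13 tested were called lower at a median of -2.98, beside 7.03% of all genes. In replicates 3 and 4 alone 3 of 12 were, at a median of -0.53, beside 5.95% of all genes. Beside these values stand the summed photoreceptor markers of replicates 1 and 2, at 37120 CPM in w1118 and 1975 CPM in Top3b26. In replicates 3 and 4 the photoreceptor sums were 29600 and 23320 CPM. The summed fat body markers were 8687 and 2286 CPM in replicates 3 and 4, and 2105 and 1938 CPM in replicates 1 and 2. In replicates 1 and 2, 3 of 5 tested fat body markers were called higher and 2 lower, beside 10.5% of all genes. In replicates 3 and 4, 1 of 6 was called higher and 4 lower, beside 7.48%. The part of either was not tested.

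**Figure D4:**
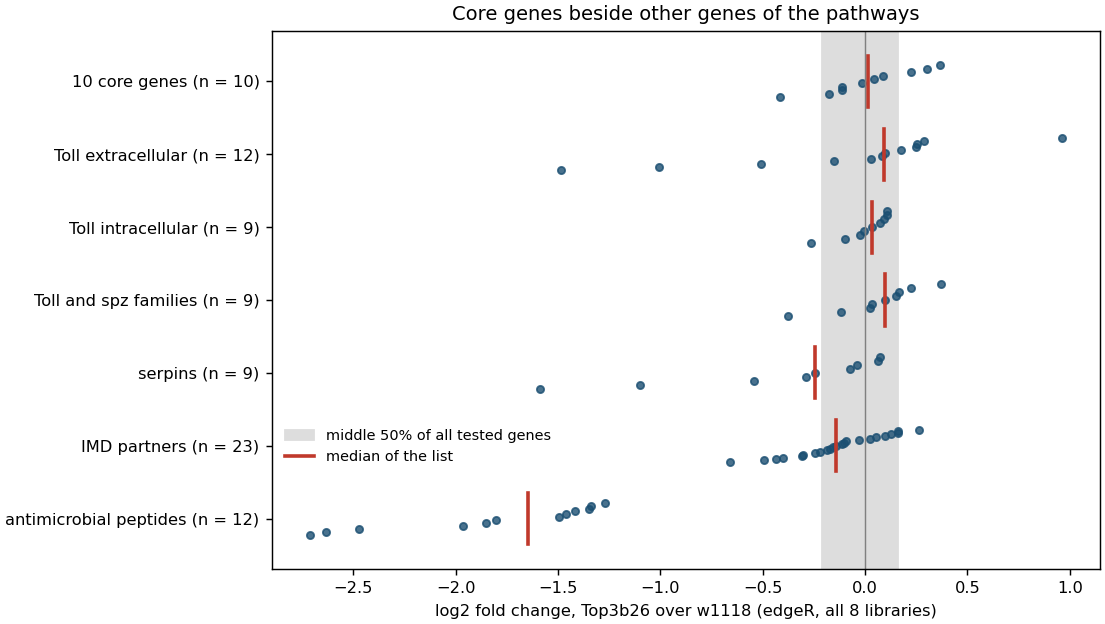
Log2 fold change over all 8 libraries (edgeR, Top3b26 over w1118) of the 10 core genes and of the tested genes of 6 other lists, 1 dot a gene, with the median of each list in red and the middle 50% of all tested genes shaded. The core genes had a median of 0.01 and lay between -0.42 and 0.37, and the 12 antimicrobial peptide genes had a median of -1.65 and lay between -2.71 and -1.27.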

How the data were processed

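The authors deposited read counts per gene symbol, whole numbers without normalization, 1 file per library. The header of w1118 replicate 2 reads CPM, but its values are whole counts and were used as such. The submitters' processing notes name TopHat2 2.1.1, SAMtools 1.8 and dm6, and the counter is not given in the sources used here. Of the reads listed, 43.1% to 48.9% fell on no gene, 16.6% to 30.4% had several alignments and 0.56% to 0.956% were ambiguous. None of these enter a gene's count, a library size or a test. Symbols were matched to the BDGP6.54 annotation (dm6 coordinates), 98.7% of 16727.

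Counts of all 8 libraries were fitted with edgeR 4.0.16 in R 4.3.3 (glmQLFit, glmQLFTest) after filterByExpr, grouped by genotype, and TMM scaling, with Benjamini-Hochberg adjustment over all tested genes. Intervals are 95% intervals of the fit, and a standard error is the size of the log2 change divided by the root of the F statistic. Exact permutation tests were two-sided, on log2 of CPM plus a pseudocount of 1. Floors of 3 counts cover counting error only. The scripts were tested on simulated data.

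Alternatives were DESeq2 1.42.0, limma-voom (limma 3.58.1), other normalizations, no filter, an exon length offset, the replicate block, a set term, the sets alone, other pseudocounts, CPM in place of RPKM for the order of levels, and leaving out each library. Library totals without TMM factors were added after the data were seen. The labels number replicates 1 to 4 in both genotypes. Deviations from the genotype means correlated between same-numbered libraries at r = 0.44 to 0.65 in all 4 pairs, and as strongly (0.53 to 0.62) between other libraries of one set, so the numbers pair the samples at least by set. No pair of replicates agreed within sampling noise.

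Named genes are all 10 core genes, *Top3β* and, of each other list, at most 4 called in edgeR with or without the block, else the 2 with the smallest p. Other genes named were chosen after their values were seen. The core genes and the lists were chosen with earlier results of these data known.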

Additional observations from a re-analysis of the deposited data

Results flagged for a closer look

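*nec* differed in its genotype effect between the sets of replicates. The effect in replicates 3 and 4 minus that in replicates 1 and 2 was -0.78 on the log2 scale (adjusted p = 0.00914, edgeR's test of the interaction of genotype and set). Of all tested genes 7.31% passed that test, so 1 of 10 core genes was near the share of all genes. In CPM *nec* was higher in 2 of 2 Top3b26 libraries of replicates 1 and 2 than in any w1118 library. It was lower in 2 of 2 of replicates 3 and 4 than in any w1118 library. With TMM scaling only the latter held, since w1118 replicate 4, at 152.9, was above Top3b26 replicates 1 and 2, at 146.2 and 149.4. The share of all genes with such a split was not counted. Of 20 groups of 4 libraries, 1 for each core gene and genotype, none held a library that stood apart by Dixon's criterion, which chance alone flags in about 1 of 20 groups.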

How the results depend on the processing

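Of the 10 core genes, *dl* (0.24 to 0.43), *spz* (0.30 to 0.50), *imd* (-0.60 to -0.18) and *Rel* (-0.29 to -0.05) kept the direction of their log2 fold change under all 22 alternatives. The number of core genes called was 0 under every alternative except replicates 3 and 4 alone, where it was 1. The other 6 turned under at least 1 alternative. In replicates 1 and 2 alone *nec* stood at 0.24 and *Dif* at -0.084, and in replicates 3 and 4 alone *Tl* at -0.014, *pll* at -0.039 and *key* at 0.048. With an exon length offset *Tl* stood at -0.018 and *key* at 0.035, and with that offset and the replicate block at -0.012 and 0.038. With library totals in place of TMM factors *nec* stood at 0.039, *cact* at 0.018 and *key* at 0.11. Leaving out 1 library at a time gave -0.028 to 0.13 for *Tl*, -0.21 to 0.0056 for *nec*, -0.032 to 0.20 for *Dif*, 0.087 to 0.46 for *pll* and -0.062 to 0.030 for *key*. The cause was not tested. Over all genes 88 were called, 368 with the replicate block, 298 with the block and the length offset, 539 with the set term, 238 in DESeq2, 1020 in replicates 1 and 2, 722 in replicates 3 and 4, and 42 to 61 with 1 library left out, where fewer samples were tested. The replicate block changed no call of a core gene. Counts were lowest for *pll* and *imd*, down to 17 and 38.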

Other observations

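Ratios of RPKM between core genes of opposed or paralogous roles were taken after their values were seen, 3 in all. They are given as a description, without test results. *dl* over *Dif* was 0.554 ± 0.0728 (SD, n = 4) in the libraries labelled w1118 and 0.668 ± 0.181 (SD, n = 4) in those labelled Top3b26. The groups overlapped. The Top3b26 libraries split by set, with 0.815 and 0.831 in replicates 1 and 2 and 0.546 and 0.480 in replicates 3 and 4. *cact* over the sum of *dl* and *Dif*, the inhibitor over its targets, was 1.70 ± 0.206 and 1.40 ± 0.178 (SD, n = 4 each), and the groups overlapped. *nec* over *spz*, the serpin over the ligand precursor, was 4.62 ± 0.851 and 3.26 ± 0.464 (SD, n = 4 each), with a log2 difference of -0.11 in replicates 1 and 2 and -0.88 in replicates 3 and 4.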
